A study of Homo sapiens with 3 samples.

Results

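Mitotic entry, spindle checkpoint and exit genes were followed as a group of 44 genes: the regulators of G2 and mitosis, without the kinesin motors and the CENP genes. They were found by symbol through the Entrez identifiers of the 3 deposited tables. All 44 were listed, out of 18331 identifiers in any table, and all 44 passed the filter on low counts, with 34 to 1480 counts in each library. The RNA was polyadenylated RNA of PC-3 cells, a long-established prostate carcinoma line, taken on day 7 of exposure to a lentivirus carrying a short hairpin RNA (shRNA). There were 2 libraries in the KMT2D shRNA group, called 1 and 2, with the genotype given as KMT2D deficiency, and the control shRNA group held 1 library with the genotype given as KMT2D normal. All 3 shared the cell line, the lentiviral delivery and the time. Separate cultures are not stated, and what the numbers 1 and 2 stand for is not given, so p-values measure only the spread between these libraries, which may be technical.

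Cells enter mitosis when cyclin A and cyclin B switch on the kinase CDK1, with CDC25 phosphatases and the Polo kinase pushing and WEE1 holding back. The spindle checkpoint (BUB1, BUB1B, BUB3, MAD2L1, TTK) keeps the ubiquitin ligase APC/C idle until every chromosome is attached. Its activator CDC20 and the enzymes UBE2C and UBE2S then mark securin (PTTG1) and the cyclins for destruction, separase (ESPL1) cuts cohesin, and the cell divides. The RNA of many of these genes peaks in G2 and mitosis under the transcription factors FOXM1 and B-MYB, so it is widely read as a sign of dividing cells.

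Library totals ran from 5123836 to 5559499 estimated counts, so that 3 counts equal 0.540 to 0.585 CPM (normalised counts scaled to the library total). The transcripts that were read were shorter in the control, with a count-weighted mean length of 3370 bases against 4023 and 4041 bases in the libraries labelled KMT2D shRNA. KMT2D, the targeted histone methyltransferase, was not lower in its shRNA libraries as counted: its level was 107 and 138 CPM in libraries 1 and 2 and 100.1 CPM in the control, with ratios to the control of 1.07 (95% interval 0.952 to 1.21) and 1.38 (1.23 to 1.54). These intervals, and all others here, are exact and cover counting error only. With the trend of fold change with length removed, the KMT2D log2 fold change went from 0.29 to -0.59 (edgeR adjusted p = 0.227 and 0.0359). Every direction is therefore given for the libraries labelled KMT2D shRNA. Of the markers of the line, the keratin genes KRT8, KRT18 and KRT19 were at 193 to 699 CPM. Of 6 epithelial markers 4 fell and 0 rose (median log2 fold change -0.71), beside 14.5% of all genes that fell, and with the length trend removed 2 fell (median -0.42), the calls of KRT8 and KRT19 being lost (edgeR adjusted p = 0.104 and 0.0865). The prostate genes KLK2 and KLK3 were not listed. The design text calls the profiles retinal, and the photoreceptor gene RCVRN was not listed either, while the photoreceptor factor CRX had 11.8 and 11.2 CPM against 20.2 CPM. Of markers of other cells, 5 of 7 leukocyte genes were listed, with a summed 41.4 and 44.6 FPKM (fragments per kilobase, scaled to library total) against 102 FPKM, CD68 and LYZ lower, and CD3E not listed. With the length trend removed CD68 stayed lower at -1.31 and LYZ lost its call (-0.30, edgeR adjusted p = 0.339). Of 5 fibroblast genes 2 were tested and 1 was higher (PDGFRA), beside 16.6% of all genes tested that rose. COL1A1 was not called, at 372 and 385 CPM against 397 CPM. Of 4 endothelial genes 2 were tested and 1 was higher (KDR), with CDH5 and VWF not listed. The part of these genes and of the length difference in the results on the mitotic genes as counted was not tested, other than by the fits with the length trend removed.

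Most of the mitotic genes stood higher in both libraries labelled KMT2D shRNA. Of 44 members, 28 rose and 0 fell (edgeR quasi-likelihood test, Benjamini-Hochberg adjusted p under 0.05), a share of 63.6% beside 16.6% of all 14058 genes tested that rose. The share of all genes that fell was 14.5%, and at an unadjusted p under 0.05 edgeR had 1 member lower, while DESeq2 had 0 at its adjusted threshold. The median log2 fold change over the members was 0.60, against -0.01 over all genes tested. Each library against the control gave much the same picture, with a member median of 0.64 in library 1 and 0.54 in library 2. Both libraries lay above the control for 35 members (79.5%, beside 41.5% of all genes) and below it for 4 (CDC25C, PTTG1, UBE2C and UBE2S), beside 42.7% of all genes. For the other 5, NEK2, BUB3, AURKB, SGO1 and CDC20, the control lay between them. Together the members made up 3729 CPM in library 1, 3633 CPM in library 2 and 2441 CPM in the control. In bulk RNA, more cells in G2 or mitosis and more of this RNA per cell cannot be told apart.

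**Figure D1:**
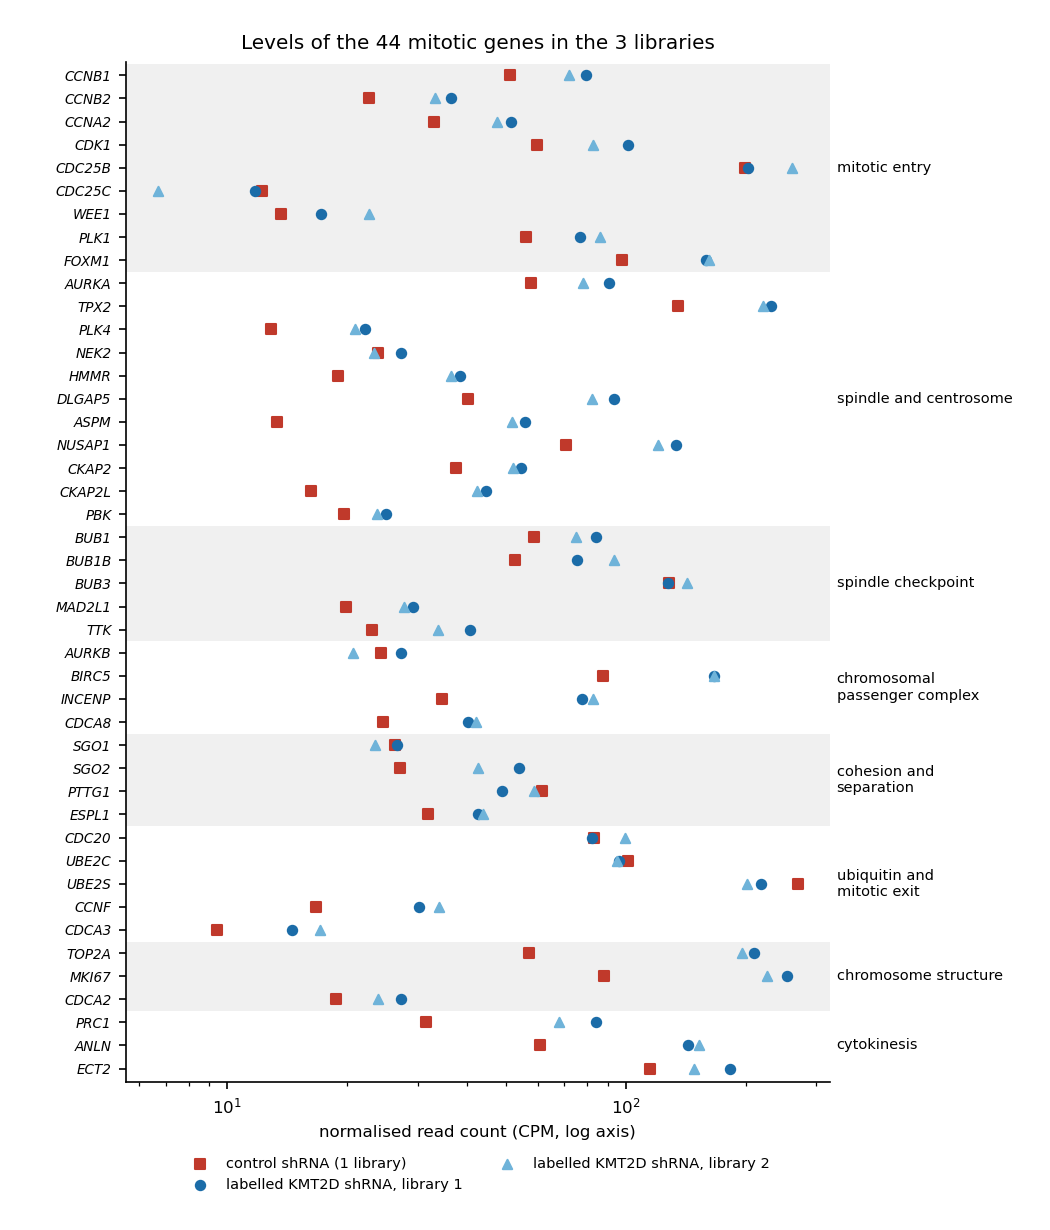
Normalised read counts (CPM, log axis) of the 44 genes in the control library (squares) and in libraries 1 (circles) and 2 (triangles) labelled KMT2D shRNA, grouped by role. Circles and triangles both lie to the right of the square for 35 genes, and the widest gaps are those of ASPM, TOP2A, MKI67 and CKAP2L.

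The number of members that rose depended on the test. DESeq2 called 12 members higher and 0 lower, beside 6.52% and 4.26% of the 10839 genes to which it gave an adjusted p. With no low-count filter edgeR called 14 and 0, beside 5.75% and 4.69% of 18283 genes. From the deposited FPKM, limma called 12 and 0 with a pseudocount of 0.1, beside 3.88% and 3.8%, and 13 and 0 with a pseudocount of 1, beside 5.57% and 6.04%. All of these were among the 28. The same 12 members passed in all 10 settings: FOXM1, TPX2, DLGAP5, ASPM, NUSAP1, CKAP2L, BIRC5, INCENP, TOP2A, MKI67, PRC1 and ANLN. Another 15 members passed in none of the 10. The counts by role below come from the edgeR fit that gave 28, and stand beside the 16.6% of all genes tested that rose.

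Among the genes that start mitosis, 6 of 9 rose, with a median log2 fold change of 0.56. CDK1, the mitotic kinase, stood at 101 and 82.4 CPM in libraries 1 and 2 and at 59.8 CPM in the control, a change of 0.62 on the log2 scale (edgeR adjusted p = 0.0083, SE 0.19). Its partner CCNB1 (cyclin B1) read 79.1 and 71.7 CPM against 51.2 CPM, and CCNB2 (cyclin B2) 36.3 and 33.1 CPM against 22.7 CPM. Both labelled libraries were above the control for each of the cyclins, including CCNA2 (cyclin A2) with 51.4 and 47.5 CPM against 32.9 CPM. The log2 fold changes were 0.56 for CCNB1, 0.61 for CCNB2 and 0.59 for CCNA2 (edgeR adjusted p = 0.0173, 0.0269 and 0.0197). PLK1, the Polo kinase that activates CDK1, rose by 0.53 (edgeR adjusted p = 0.022, SE 0.18). FOXM1, the transcription factor of G2 genes, read 159 and 161 CPM against 97.9 CPM, the largest change of this set at 0.71 (edgeR adjusted p = 0.00171, SE 0.18). The direct switches on CDK1 did not pass: CDC25B, an activating phosphatase, had 202 and 260.2 CPM against 199 CPM. CDC25C, its sister phosphatase, had 11.7 and 6.7 CPM against 12.2 CPM, so library 1 sat at the control and library 2 below it, with a ratio of library 2 to the control of 0.551 (95% interval 0.353 to 0.844). WEE1, the inhibitory kinase, had 17.2 and 22.7 CPM against 13.6 CPM, a log2 fold change of 0.55 (edgeR adjusted p = 0.0957, SE 0.25).

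The spindle and centrosome genes held the largest rise of the group as fitted, that of ASPM, and 9 of 11 passed (median 0.74). With the length trend removed TOP2A, a gene of chromosome structure, rose more than ASPM (1.47 against 1.39). ASPM, which holds spindle poles together and is known for its mutations in microcephaly, had 55.8 and 51.8 CPM against 13.3 CPM. The control value rested on 73 counts, and the ratios to it were 4.21 (95% interval 3.25 to 5.52) and 3.91 (3.01 to 5.14). Its log2 fold change was 2.02 (edgeR adjusted p = 5.59e-10, SE 0.23). CKAP2L, a spindle protein, read 44.5 and 42.2 CPM against 16.2 CPM, a log2 fold change of 1.42 (edgeR adjusted p = 1.9e-06, SE 0.23), whereas its relative CKAP2 had 54.6 and 52 CPM against 37.4 CPM and rose by 0.51 (edgeR adjusted p = 0.0378, SE 0.19). DLGAP5, which stabilises kinetochore fibres, had 93.2 and 82.2 CPM against 40.1 CPM, and HMMR, a microtubule-binding spindle protein, 38.4 and 36.3 CPM against 18.9 CPM. Both labelled libraries lay above the control in each of these genes, with a narrower gap in CKAP2 than in the others. AURKA, the centrosomal Aurora kinase, and TPX2, its activator, rose together by 0.55 and 0.74 (edgeR adjusted p = 0.0183 and 0.000991), and NUSAP1, a microtubule bundler, rose by 0.84. PLK4, the kinase that starts centriole duplication, had 22.2 and 20.9 CPM against 12.9 CPM and rose by 0.74 (edgeR adjusted p = 0.0188). NEK2, the kinase that splits centrosomes, had 27.3 and 23.3 CPM around a control of 23.8 CPM, and PBK, a mitotic kinase, 25 and 23.7 CPM against 19.6 CPM, and neither passed (log2 fold changes of 0.09 and 0.31).

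**Figure D2:**
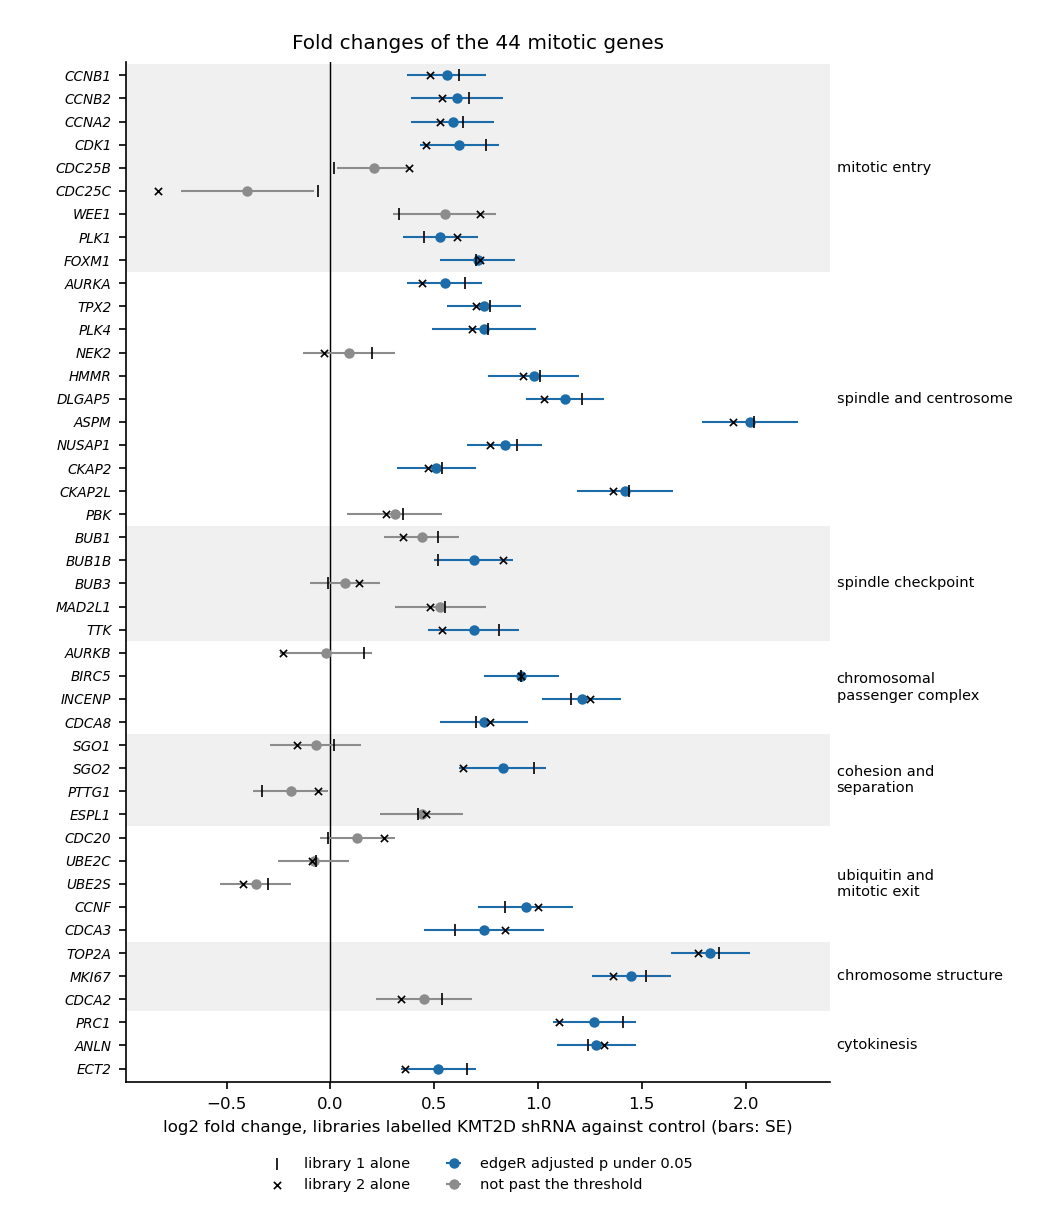
Log2 fold change of each gene in the libraries labelled KMT2D shRNA against the control (points, with SE bars), with library 1 alone (vertical ticks) and library 2 alone (crosses). Filled blue points are the 28 genes at an edgeR adjusted p under 0.05, all to the right of 0, and the 16 grey points did not pass.

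Of the 5 spindle checkpoint genes, 2 rose, beside 16.6% of all genes tested. BUB1B (BubR1), a part of the complex that blocks CDC20, had 75.5 and 93.4 CPM against 52.5 CPM, a log2 fold change of 0.69 (edgeR adjusted p = 0.00392, SE 0.19). TTK (Mps1), the kinase at the top of the checkpoint, had 40.7 and 33.7 CPM against 23.1 CPM, also a change of 0.69 (edgeR adjusted p = 0.0125, SE 0.22). DESeq2 called neither BUB1B nor TTK (DESeq2 adjusted p = 0.158 and 0.334). With the length trend removed TTK kept its edgeR call, BUB1B lost it and MAD2L1 gained one. BUB1, the scaffold kinase, read 84.1 and 74.7 CPM against 58.7 CPM and MAD2L1 (Mad2) 29.2 and 27.8 CPM against 19.8 CPM. Both labelled libraries were above the control in these genes, yet the fitted changes of 0.44 and 0.53 missed the threshold (edgeR adjusted p = 0.0626 and 0.0667). BUB3, which brings the other BUB proteins to kinetochores, was level, with 127 and 142 CPM around 128 CPM.

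The chromosomal passenger complex joins the kinase AURKB to INCENP, BIRC5 (survivin) and CDCA8 (borealin). Of its 4 genes 3 rose and the kinase did not. INCENP, the scaffold, had 77.4 and 82.8 CPM against 34.5 CPM, a log2 fold change of 1.21 (edgeR adjusted p = 2.09e-06, SE 0.19). BIRC5 had 166 CPM in both labelled libraries against 87.5 CPM, a change of 0.92 (edgeR adjusted p = 7.31e-05, SE 0.18), and CDCA8 rose by 0.74 (edgeR adjusted p = 0.00564, SE 0.21). AURKB had 27.3 and 20.7 CPM on either side of 24.3 CPM, a log2 fold change of -0.02 (SE 0.22). The difference between AURKB and its partners was not tested.

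Among the genes of cohesion and separation 1 of 4 rose, a count near the share of all genes tested that rose (16.6%). SGO2, a shugoshin that shields centromeric cohesin, had 53.9 and 42.4 CPM against 27.1 CPM, a log2 fold change of 0.83 (edgeR adjusted p = 0.00181, SE 0.21). SGO1, the shugoshin of mitotic centromeres, had 26.7 and 23.5 CPM around 26.3 CPM (log2 fold change -0.07, SE 0.22). PTTG1 (securin) had 48.9 and 58.7 CPM against 61.4 CPM, and ESPL1 (separase), the protease it restrains, 42.6 and 43.8 CPM against 31.8 CPM. Neither passed, at -0.19 (edgeR adjusted p = 0.463) and 0.44 (edgeR adjusted p = 0.0925).

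Genes of ubiquitin transfer and mitotic exit were split. CCNF (cyclin F), the substrate receptor of an SCF ubiquitin ligase, had 30.2 and 33.9 CPM against 16.7 CPM, and CDCA3, a mitotic entry factor that is itself destroyed through APC/C, 14.5 and 17.1 CPM against 9.44 CPM. These rose by 0.94 and 0.74 (edgeR adjusted p = 0.00124 and 0.043). The 3 genes that act on APC/C did not pass. CDC20 had 82.3 and 99.5 CPM against 83.2 CPM, UBE2C 95.9 and 94.6 CPM against 101 CPM, and UBE2S 218 and 201 CPM against 269 CPM. For UBE2S, which extends ubiquitin chains, both ratios to the control lay below 1 (0.81, 95% interval 0.749 to 0.876, and 0.749, 0.691 to 0.811), while the fitted log2 fold change of -0.36 missed the threshold (edgeR adjusted p = 0.0965, SE 0.17).

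Of the 3 genes of chromosome structure 2 rose (median 1.45), and of the 3 cytokinesis genes 3 rose (median 1.27). TOP2A, the topoisomerase that untangles sister chromosomes, had 209.8 and 195 CPM against 57 CPM, a log2 fold change of 1.83 (edgeR adjusted p = 4.8e-11, SE 0.19). MKI67, the coat protein of mitotic chromosomes used as a proliferation marker, had 253 and 226 CPM against 87.9 CPM, a change of 1.45 (edgeR adjusted p = 1.32e-08, SE 0.19). CDCA2, a chromatin targeting subunit of protein phosphatase PP1, had 27.3 and 23.9 CPM against 18.7 CPM and did not pass (0.45, edgeR adjusted p = 0.127). Of the cytokinesis genes, ANLN (anillin) read 143 and 152 CPM against 60.7 CPM and PRC1, which bundles the central spindle, 83.9 and 68 CPM against 31.4 CPM. ANLN rose by 1.28 and PRC1 by 1.27 (SE 0.19 and 0.20, edgeR adjusted p = 2.91e-07 and 1.52e-06). ECT2, the exchange factor that activates RhoA at the cleavage site, had 182 and 148 CPM against 115 CPM and rose by 0.52 (edgeR adjusted p = 0.0228). Over all roles, 8 members were at a log2 fold change of 1 or more (ASPM, TOP2A, MKI67, CKAP2L, ANLN, PRC1, INCENP and DLGAP5), a share of 18.2% beside 7.9% of all genes tested.

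Many G2 and mitotic promoters are known to carry a cell cycle genes homology region (CHR), the site of the DREAM and B-MYB complexes, together with CCAAT boxes. The letters TTTGAA (the CHR core) and CCAAT were searched on both strands in RefSeq promoter windows of the build GRCh38.p14, from 250 bases before to 50 after the transcript start. Windows were matched for 34 members (not for WEE1, FOXM1, AURKA, TPX2, PBK, BUB3, TTK, BIRC5, UBE2C and CDCA2). TTTGAA was found in 22 of the 34 windows (64.7%), beside 9.71% of the 11117 windows of genes tested and 15.4% of all 27305 windows. CCAAT was found in 28 of the 34 (82.4%), beside 36.8% and 35.7%, and both motifs in 19 (55.9%), beside 4.07% and 6.08%. Near the start, from 50 bases before to 50 after, TTTGAA lay in 17 member windows, beside 2.72% of those of genes tested. Of the 22 members with TTTGAA 19 rose (median log2 fold change 0.79, or 0.90 with the length trend removed), and of the 12 without it 4 rose (median 0.15, or 0.33). Over all genes tested, 21.9% of the 1080 with TTTGAA in the window rose (median 0.07), and 16.3% of the 10037 without it (median -0.01). The difference between the motif classes was not tested. A match is a description of the letters and not evidence of binding. Only the exact letters were searched, in the window taken for each gene, so their absence does not show that a gene lacks a CHR. The 250 upstream bases are shown for the 4 called members with the largest fold change among those with TTTGAA, on the minus strand in each case, 5′ to 3′ in the direction of the gene. Capitals mark TTTGAA or its reverse complement TTCAAA, and CCAAT or its reverse complement ATTGG. They lie at chr1:197146670-197146919 (ASPM), chr17:40417897-40418146 (TOP2A), chr10:128126424-128126673 (MKI67) and chr2:112764610-112764859 (CKAP2L).
ASPM: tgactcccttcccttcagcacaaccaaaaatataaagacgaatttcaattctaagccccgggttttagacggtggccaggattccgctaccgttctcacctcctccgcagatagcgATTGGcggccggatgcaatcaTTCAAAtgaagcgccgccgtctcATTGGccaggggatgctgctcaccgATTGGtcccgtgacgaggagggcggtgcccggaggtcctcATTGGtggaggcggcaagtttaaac
TOP2A: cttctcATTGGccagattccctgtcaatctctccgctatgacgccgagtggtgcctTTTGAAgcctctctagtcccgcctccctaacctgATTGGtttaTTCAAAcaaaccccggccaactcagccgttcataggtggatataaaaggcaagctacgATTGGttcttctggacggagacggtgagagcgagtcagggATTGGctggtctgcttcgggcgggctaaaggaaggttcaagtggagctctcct
MKI67: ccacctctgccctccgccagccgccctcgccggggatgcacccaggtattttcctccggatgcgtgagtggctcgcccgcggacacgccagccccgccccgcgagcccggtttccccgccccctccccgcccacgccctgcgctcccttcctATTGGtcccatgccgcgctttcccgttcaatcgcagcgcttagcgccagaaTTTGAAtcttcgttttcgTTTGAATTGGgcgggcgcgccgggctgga
CKAP2L: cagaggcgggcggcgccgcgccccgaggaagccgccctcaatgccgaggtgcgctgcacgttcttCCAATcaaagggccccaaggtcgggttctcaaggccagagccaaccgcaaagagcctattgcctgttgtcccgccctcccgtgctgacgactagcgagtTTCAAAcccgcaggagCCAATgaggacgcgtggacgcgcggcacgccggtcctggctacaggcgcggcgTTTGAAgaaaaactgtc
ASPM and TOP2A held 4 CCAAT boxes each and MKI67 and CKAP2L 2 each in the whole window. In MKI67 the second TTTGAA, whose first base is at position -29 from the transcript start, overlapped a reverse CCAAT box, and the first lay at -47. The ASPM match lay at -113 on the opposite strand, and those of CKAP2L at -86 (opposite strand) and -17. In TOP2A they lay farther out, at -194 and, on the opposite strand, -151.

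**Figure D3:**
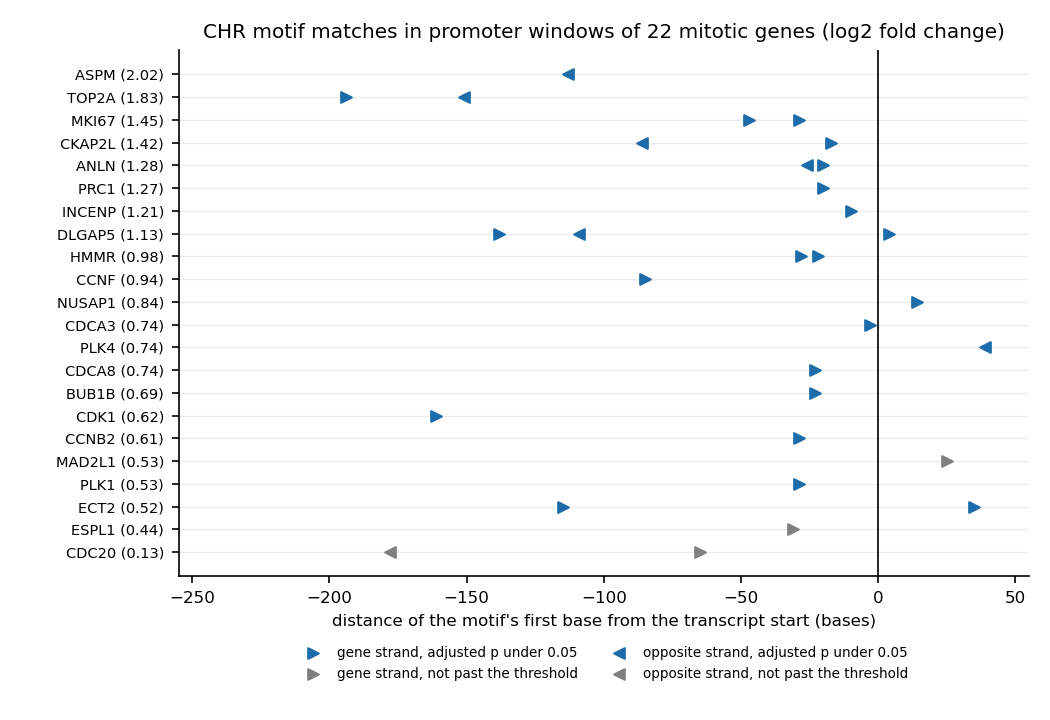
Distance of each CHR motif match from the transcript start in the promoter windows of 22 members, ordered by log2 fold change (in brackets), with right-pointing marks on the gene strand and left-pointing marks on the opposite strand. Blue marks are the 19 genes that rose and grey marks MAD2L1, ESPL1 and CDC20, and most matches lie within 50 bases of the start.

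Fold change followed transcript length in these libraries, so the members were set against genes of similar length. Across all genes tested Spearman's coefficient between log2 fold change and length was 0.46, and across the 44 members, which run from 728 to 11664 bases, it was 0.54. Genes are not independent replicates, and all of these fold changes share 1 control library. Among non-members under 1500 bases 2.52% rose, and of the 6 members that short 1 rose. From 1500 to 2500 bases 7 of 12 members rose, beside 4.64% of non-members. From 2500 to 3500 bases 7 of 8 rose, beside 10.5%, and from 3500 to 5000 bases 10 of 14, beside 21.6%. At 5000 bases or more 3 of 4 rose, beside 42.1% of non-members.

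Each member was also compared with the 200 non-member genes nearest to it in length. Of 44 members 42 lay above the median of these neighbours, by a median of 0.68 on the log2 scale, and the median member stood at percentile 87.5 among them. TOP2A stood highest, at percentile 99.5, then ASPM and ANLN at 96.5. MKI67, at 1.45, stood at percentile 87.5, and its neighbours had a median of 0.72, as did those of ASPM. Some members with small fold changes stood high for their length: MAD2L1 at percentile 91, UBE2C at 85.5 and PTTG1 at 77.5, where the neighbours' medians were -0.36, -0.54 and -0.54. The members below their neighbours were CDC25C at percentile 32.5 and SGO1 at 40.

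**Figure D4:**
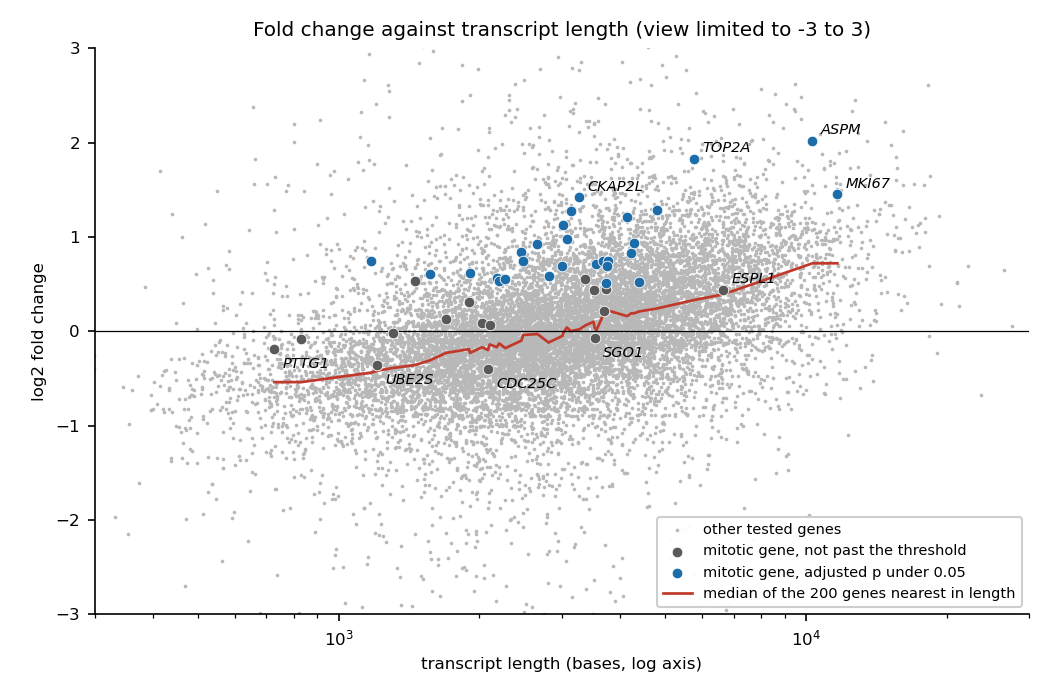
Log2 fold change against transcript length (log axis) for the 44 members (blue, past the edgeR threshold; dark grey, not past it) and the other tested genes (light grey), with the median of the 200 genes nearest in length to each member as a red line. The red line climbs from -0.54 for the shortest member to 0.72 for the longest, and 42 of 44 members lie above it.

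With the length trend taken out of each library in the edgeR fit, 25 members rose and 0 fell, beside 7.87% of all genes that rose and 8.19% that fell, with a member median of 0.63. Of these, 24 were among the 28. The calls lost were those of BUB1B (0.56, edgeR adjusted p = 0.0582), PLK4 (0.61, edgeR adjusted p = 0.0924), CKAP2 (0.38, edgeR adjusted p = 0.176) and ECT2 (0.30, edgeR adjusted p = 0.276), and MAD2L1 was gained (0.87, edgeR adjusted p = 0.01). Long members shrank: ASPM went from 2.02 to 1.39, TOP2A from 1.83 to 1.47, MKI67 from 1.45 to 0.77 and ESPL1 from 0.44 to 0.01. Short members grew: CDCA3 went from 0.74 to 1.16, CCNB2 from 0.61 to 0.93 and CDK1 from 0.62 to 0.85. The values of UBE2C, PTTG1, UBE2S and AURKB turned from below 0 to above it, at 0.40, 0.31, 0.05 and 0.36, and passed in neither fit. With a trend of GC content removed as well, 22 members rose and 0 fell, beside 7.45% and 7.07% of all genes, and CCNA2 (0.52, edgeR adjusted p = 0.0677), SGO2 (0.54, edgeR adjusted p = 0.0784) and TTK (0.58, edgeR adjusted p = 0.0701) were lost too.

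**Figure D5:**
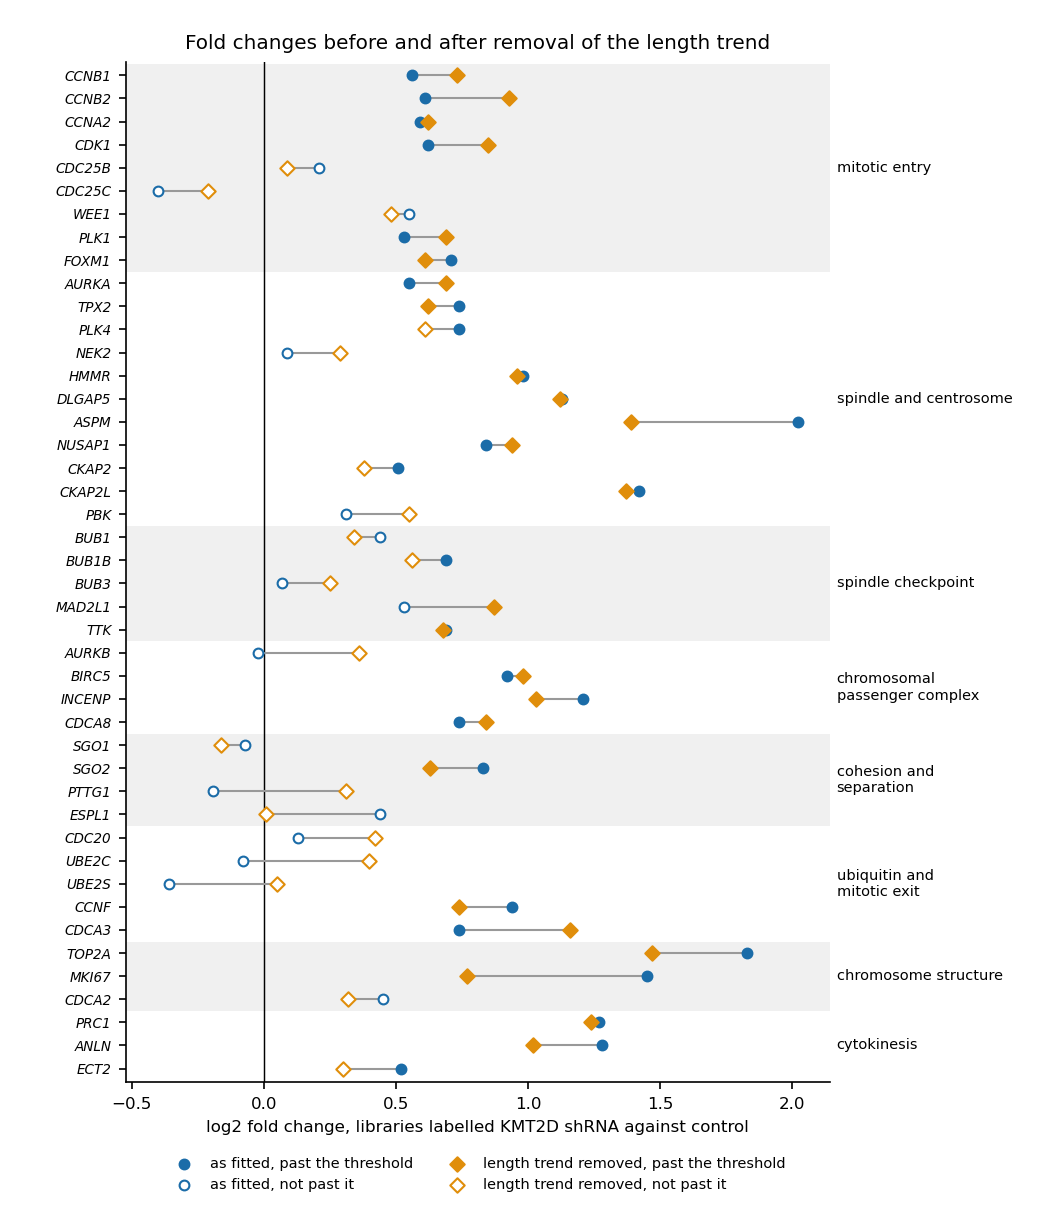
Log2 fold change of each member as fitted (blue circles) and with the length trend removed (orange diamonds), filled where the edgeR adjusted p was under 0.05. The filled marks number 28 and 25, the long genes ASPM, MKI67 and TOP2A move left, and the short genes CDCA3, UBE2C and PTTG1 move right.

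Other genes of the same machinery were counted list by list, to be read against the 16.6% of all genes that rose and the 14.5% that fell, or 7.87% and 8.19% with the length trend removed. Of 16 genes of APC/C and its inhibitors 2 rose and 4 fell (median -0.07), the rises being near the share of all genes, among them ANAPC1 (0.66) and CDC27 (0.65), large subunits, upwards, and the small subunits CDC26 (-0.94) and ANAPC13 (-0.67) downwards. With the length trend removed 0 rose and 1 fell, ANAPC16 at -0.70 (edgeR adjusted p = 0.0112), named after its value was seen. Of 18 condensin and cohesin genes, which compact and pair chromosomes, 13 rose and 1 fell (median 0.74). Those with the largest changes were the condensin subunits NCAPG2 (1.23), NCAPD3 (1.16), NCAPD2 (0.92) and the core ATPase SMC2 (0.89), while NCAPH2, of condensin II, fell by 0.83 on the log2 scale (named after its value was seen). With the length trend removed, 3 rose and 1 fell (median 0.27). Of 14 MuvB, B-MYB and pocket protein genes 7 rose and 2 fell (median 0.47), or 5 and 0 with the length trend removed (median 0.46). MYBL2, which encodes B-MYB and was named after its value was seen, had 151 and 145 CPM against 90.8 CPM and rose by 0.70 (edgeR adjusted p = 0.00194, SE 0.18), or 0.75 with the trend removed. Its relative MYBL1 rose by 1.15, the pocket protein gene RBL1 by 1.02 and the MuvB subunit gene LIN9 by 0.89, and the repressor gene E2F5 fell by 0.84 on the log2 scale (its fall was lost with the trend removed, edgeR adjusted p = 0.0772).

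A list of 13 genes held the Greatwall pathway, the phosphatases that oppose CDK1, and the CDK1 regulators CDC25A and PKMYT1. Of these 13 genes 1 rose and 2 fell (median -0.05), counts near the shares of all genes. CDC25A (-0.06) and PKMYT1 (-0.25) did not pass. MASTL, the Greatwall kinase that protects CDK1 phosphorylation in mitosis, went the other way from most members: it had 24.3 and 19.7 CPM against 41.8 CPM, a log2 fold change of -0.92 (edgeR adjusted p = 0.000489, SE 0.21). Removal of the length trend left it at -1.03 (edgeR adjusted p = 0.00216). The other calls were CDC14B, an exit phosphatase gene, at 0.66 and PPP1CA, a catalytic subunit of PP1, at -0.43 (edgeR adjusted p = 0.0396 and 0.0458), and with the trend removed neither passed. The 1 rise in that fit was ENSA (0.57, edgeR adjusted p = 0.0353), a substrate of MASTL, named after its value was seen. Of 20 further cytokinesis and spindle assembly genes 9 rose and 2 fell (median 0.36), or 6 and 0 with the trend removed. The rises were led by CIT, the citron kinase of the midbody, at 1.21 and the spindle protein SPAG5 at 1.03, with RACGAP1 of the central spindle at 0.75, and the checkpoint silencing gene MAD2L1BP fell by 0.96 on the log2 scale (-0.58 with the trend removed, edgeR adjusted p = 0.0749).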

How the data were processed

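RNA was selected with oligo(dT) beads, reverse transcribed with random primers and sequenced on a BGISEQ-500, per the labels' protocols, which name no step that marks strand. The submitters' processing notes list the build hg19 and the tools Bowtie2 and HISAT, without roles or versions. The tool that counted reads is not given in the sources used here. The authors deposited for each library the expected count per gene (not normalised), the FPKM (scaled by length and library total, per the file headers) and the transcript length, for which the mean over libraries was used; 21 members had 1 length in all 3. A gene without a value in a library was taken as 0.

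Expected counts were rounded. edgeR 4.0.16 (R 4.3.3) was run with its default filter, TMM scaling and a quasi-likelihood model of group, with Benjamini-Hochberg adjustment over 14058 genes. It has 1 residual degree of freedom, and the control, without a replicate, was assumed to vary like the labelled libraries (biological coefficient of variation 10.9%). CPM are TMM-scaled, SE come from the F statistic, and fold changes per library use a prior count of 2. The trend removal fitted splines with 5 degrees of freedom of the log ratio to the control on length (and GC, known for 97.8% of genes), as offsets. limma 3.58.1 was run on log2(FPKM + 1) and log2(FPKM + 0.1), and DESeq2 1.42.0 on the counts. On data simulated for this comparison, with 200 changed genes among 13822, the share edgeR found was 16.4% at 1.5-fold, 67.2% at 2-fold and 93.9% at 4-fold, with 6 false calls. That simulation held no trend with length, so its 6 false calls do not carry over to libraries with such a trend. It also changed far fewer genes than the real fit called (2327 higher and 2042 lower of 14058). The adjustment of p-values therefore differed, and the shares found do not carry over either. With the fitted length trend added and no gene changed, edgeR called 726 of 14058 genes. It called 0 with the trend removed, where the trend added had the same form as the trend taken out.

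The libraries labelled KMT2D shRNA had a mutual chi-square per gene of 5.6, more than counting noise gives, against 43.6 and 42.9 with the control. They were fitted as separate samples, although this value cannot show that they were separate cultures. Names came from RefSeq (GRCh38.p14), which matched 99.5% of identifiers, and overlaps and GC from GENCODE 29. Members and lists were chosen with earlier results of these data known. All members were named by role, with KMT2D, up to 4 genes with the largest called change per pathway list, and up to 4 promoters.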

Additional observations from a re-analysis of the deposited data

How the results depend on the processing

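Over the alternatives, 0 members were lower and the median log2 fold change of the members stayed between 0.54 and 0.64, including each labelled library alone (0.54 without library 1 and 0.64 without library 2). Those last are values with no test, since 1 library against 1 leaves no residual degree of freedom. The count of members higher, 28 as reported, was 12 with DESeq2, 14 without a filter on low counts, 12 with limma on log2(FPKM + 0.1) and 13 with limma on log2(FPKM + 1). It was 28 with median-ratio size factors, 24 with library totals, 26 at a mean of 5 CPM or more, 25 with the length trend removed and 22 with both trends removed. The cause was not tested. The median excess over genes of similar length was 0.66 with 50 neighbours and 0.67 with neighbours at 5 CPM or more, against 0.68. No paired analysis was possible because there was 1 control library for the 2 labelled libraries. Depth limits the weakest members: CDC25C rested on 34 to 67 counts and CDCA3 on 52 to 87.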

Other observations

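Among the members, levels compared per length (FPKM) were highest for UBE2S, UBE2C and PTTG1, in that order, in every library. UBE2S had 186 and 168 FPKM in the libraries labelled KMT2D shRNA and 223 FPKM in the control, and UBE2C 121, 115 and 124 FPKM. PTTG1 followed with 70.7, 82.8 and 86.3 FPKM. At the other end ASPM, the member with the largest fold change as fitted, had the lowest level in the control, at 1.42 FPKM. It had 5.13 and 4.65 FPKM in the labelled libraries. Across the 44 members the log2 fold change ran against the control level in FPKM (Pearson -0.53, Spearman -0.41), a description only, since both quantities use the control library and the lowest members include long transcripts.

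Libraries 1 and 2 differed from each other beyond counting error for 12 members, beside 23.3% of all genes, with 4 higher in library 2 and 8 higher in library 1. CDC25C showed the widest gap, with a ratio of library 2 to library 1 of 0.575 (95% interval 0.366 to 0.889). CDC25B was higher in library 2 (1.29, interval 1.19 to 1.4) and so were BUB1B (1.24, interval 1.08 to 1.42) and CDC20 (1.21, interval 1.06 to 1.38). AURKB (0.758, interval 0.583 to 0.981), SGO2 (0.787), PRC1 (0.811), ECT2 (0.813) and CDK1 (0.815) were higher in library 1.

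The protocols name no step that marks strand, and whether counting used strand is not given in the sources used here. In GENCODE 29, 13 members have exons that overlap a gene on the opposite strand, among them FOXM1 (with ITFG2), CDC25C (with FAM53C), CDCA3 (with GNB3), PRC1 (with PRC1-AS1) and SGO1 (with SGO1-AS1). Related copies are annotated for 13 members, among them PTTG1, UBE2C, UBE2S, AURKA and CDC20, so their counts are uncertain where reads were shared. The part of these overlaps in the results was not tested.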
